A study of Mus musculus with 5 samples.

Results

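Tumor macrophage polarization genes were examined in RNA of the tumor-bearing brain after ultrasound-mediated blood–brain barrier opening (UMBO). The 9 genes were Arg1, Nos2, Il10, Tgfb1, Tgfbi, Ido1, Chil3, Retnla and Il4ra. They were taken by symbol from 55573 genes in the count tables. All 9 had enough reads to be tested, among 23592 genes tested in all. Female C57BL/6 mice aged 7 to 8 weeks were injected in the right caudate nucleus-putamen with GL261, a mouse glioma cell line that carried luciferase and mKate2. Mice of the vehicle group (3 libraries) received antibody dilution buffer, and mice of the UMBO group (2 libraries) received pulsed ultrasound with intravenous microbubbles. Treatment was given on days 21 and 24, and the right hemisphere was taken 24 h after the last session. Each library is bulk RNA of 1 hemisphere with its tumor, so fewer cells of a type and less RNA per cell cannot be told apart.

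Macrophages that enter a glioma, and resident microglia, change their gene program with the signals around them. IL-4 and IL-13 act through a receptor that contains the IL-4 receptor alpha chain (Il4ra) and through STAT6, and they induce arginase 1 (Arg1), the chitinase-like protein Ym1 (Chil3) and the resistin-like protein Fizz1 (Retnla) in mouse macrophages. Interferon-gamma and bacterial products instead induce the inducible nitric oxide synthase (Nos2), which uses the same amino acid, L-arginine, as arginase 1. IL-10 (Il10) and TGF-beta 1 (Tgfb1) are secreted cytokines that dampen T cell responses, Tgfbi encodes a secreted matrix protein induced by TGF-beta, and Ido1 encodes an enzyme that opens the tryptophan ring on the way to kynurenine.

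None of the 9 genes passed the test between UMBO and vehicle, and no gene of the whole table did (edgeR quasi-likelihood test, adjusted p under 0.05, 0% of 23592 genes). At an unadjusted p under 0.05, edgeR had 2 of the 9 genes, Tgfb1 and Chil3, against 7.37% of all genes tested. The DESeq2 Wald test called 0 of the 7 that it gave an adjusted p (none for Arg1 and Retnla) and 40 genes in all (0.179% of 22403). At an unadjusted p under 0.05 it had 4 (Tgfb1, Tgfbi, Chil3 and Il4ra) of the 9, with no p for Arg1. The share over all genes was 6.77% of 40434, a set that was not filtered on low counts, so it is not on the same footing as the edgeR share. Fitted log2 fold changes (UMBO minus vehicle) were above 0 for 7 of the 9 genes, against 50.9% of all genes, and below 0 for Ido1 and Retnla. The median over the 9 genes was 1.18, where the median of all genes was 0.01. UMBO replicate 2 decided this median, which was 0.10 without that library, with 5 of the 9 genes above 0 against 47.5% of all genes. With the replicate number as a block, 5 of the 9 genes passed the adjusted threshold, against 9.91% of all genes (9.42% over the numbers both groups hold), although the numbers are not known to pair the mice.

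Chil3 and Tgfb1 were the 2 genes with no overlap between the groups, UMBO being the higher (11.5% of all genes tested had this order). Their promoters are printed here, with that of Retnla, another IL-4 target gene, all from RefSeq (GRCm38.p6). Promoters of 5 of the 9 genes were at hand (Chil3, Il4ra, Retnla, Tgfb1 and Tgfbi), and those of Arg1, Nos2, Il10 and Ido1 were not used here. The bases shown end just before the first annotated base of each gene, run 5′ to 3′ on the strand of the gene, and carry motif matches in capitals.

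Chil3, chr3:106167565-106167814, reverse strand: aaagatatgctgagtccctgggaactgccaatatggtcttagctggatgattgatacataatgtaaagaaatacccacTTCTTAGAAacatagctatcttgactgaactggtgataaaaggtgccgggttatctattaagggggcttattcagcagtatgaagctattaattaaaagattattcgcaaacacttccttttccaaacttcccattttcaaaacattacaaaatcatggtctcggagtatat
Tgfb1, chr7:25686752-25687001, forward strand: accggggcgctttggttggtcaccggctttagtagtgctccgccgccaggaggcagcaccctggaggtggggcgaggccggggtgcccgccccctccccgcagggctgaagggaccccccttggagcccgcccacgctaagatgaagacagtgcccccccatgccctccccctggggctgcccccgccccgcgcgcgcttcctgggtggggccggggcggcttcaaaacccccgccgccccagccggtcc
Retnla, chr16:48842359-48842550, forward strand: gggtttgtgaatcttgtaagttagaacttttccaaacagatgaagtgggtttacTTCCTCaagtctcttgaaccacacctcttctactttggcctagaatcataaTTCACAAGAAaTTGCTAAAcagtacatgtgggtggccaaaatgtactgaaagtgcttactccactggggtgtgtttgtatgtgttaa

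Motifs were searched on both strands in the 250 bases before the RefSeq start. They were the STAT6 motif (TTC and GAA with 4 free bases between), the STAT motif TTCNNNGAA, the C/EBP motif TTGCNNAA, the PU.1 motif GAGGAA, the AP-1 motif TGANTCA, the NF-kB motif and the TATA box TATAAA. The Chil3 promoter held 1 match, to the STAT motif TTCNNNGAA, which 7.04% of 32536 promoters of this length held. The Retnla promoter held a match to the STAT6 motif (5.89% of promoters), next to one to the C/EBP motif (9.57%), besides matches to the PU.1 motif (23.4%) and the TATA box (12.3%), the last of which lies beyond the printed bases. The Tgfb1 promoter held no match to these letters and had a GC content of 75.2%, against 36.4% for Chil3 and 42.8% for Retnla. A match of letters is not a binding site, and nothing about these factors follows from it.

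The hemispheres differed in sequencing depth and in cell type markers, and the cause of these differences was not tested. Total counts lay between 59736771 and 86164159. Counting error was wide for Il10 and Retnla, and in single libraries also for more abundant genes. Chil3 had 11 and 17 reads in vehicle replicates 1 and 3, and Arg1 had 18 reads in vehicle replicate 1. UMBO replicate 2 stood apart from the other libraries on the main axis of variation, at 133.7 where the others lay between -68.4 and 17.0. All 16 macrophage and monocyte markers had fitted log2 fold changes above 0, with a median of 1.77, and their summed level was 251 to 648 CPM (CPM being the read count scaled to a common library size by TMM) with vehicle, and 716 and 2004 CPM in UMBO replicates 1 and 2. Without Vim, which made up 38.9% and 47.1% of the UMBO sums, the sum was 182 to 398 CPM with vehicle and 438 and 1061 CPM with UMBO. The mean log2 CPM of the markers, in contrast, was lower in UMBO replicate 1 (3.94) than in vehicle replicate 2 (4.10). Both UMBO libraries were above every vehicle library for 7 of the 16 markers, against 11.5% of all genes tested. None of these 16 markers was at 0 in a library. The part of tumor and other cells in the Vim values was not tested. The paper's flow cytometry used CD11b (Itgam), CD45 (Ptprc) and CD68 to define microglia, so the list does not separate macrophages from microglia. The summed level of 10 proliferation markers was 31.9 to 102 CPM with vehicle and 108 and 451 CPM with UMBO, while that of 10 neuron markers was 6050 to 9061 CPM with vehicle and 6303 and 3153 CPM with UMBO. Neuron, oligodendrocyte and astrocyte markers were abundant in each library.

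**Figure D1:**
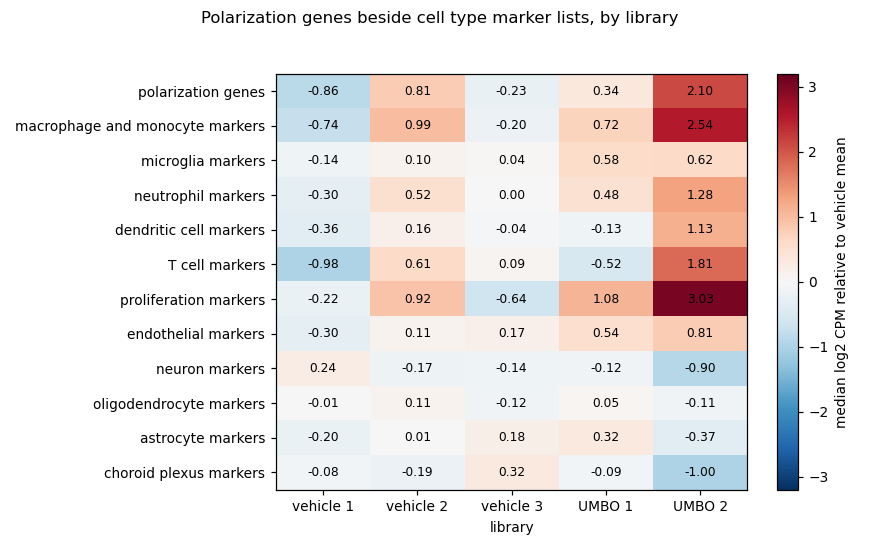
Median log2 CPM, relative to the mean of the vehicle libraries, of the 9 polarization genes and of 11 marker lists (rows) in the 5 libraries (columns), with red for higher and blue for lower values. The polarization genes, at -0.86, 0.81 and -0.23 with vehicle and 0.34 and 2.10 with UMBO, had the same order of libraries as the macrophage and monocyte markers and the neutrophil markers.

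Per kilobase of exon, the mean level over the 5 libraries was highest for Tgfbi (9.70 RPKM), followed by Arg1 (7.76), Tgfb1 (4.25), Il4ra (2.74), Chil3 (1.82) and Ido1 (1.53). Nos2 (0.254), Retnla (0.179) and Il10 (0.129) lay well below. The spread between libraries was wider than most steps in this order. Arg1, for example, ranged from 0.108 to 20.9 RPKM, below Nos2 in vehicle replicate 1 and above Tgfb1 in UMBO replicate 2. Only the step from Ido1, whose lowest library was at 0.654 RPKM, to Nos2, whose highest was at 0.453 RPKM, had no overlap between neighbors.

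**Figure D2:**
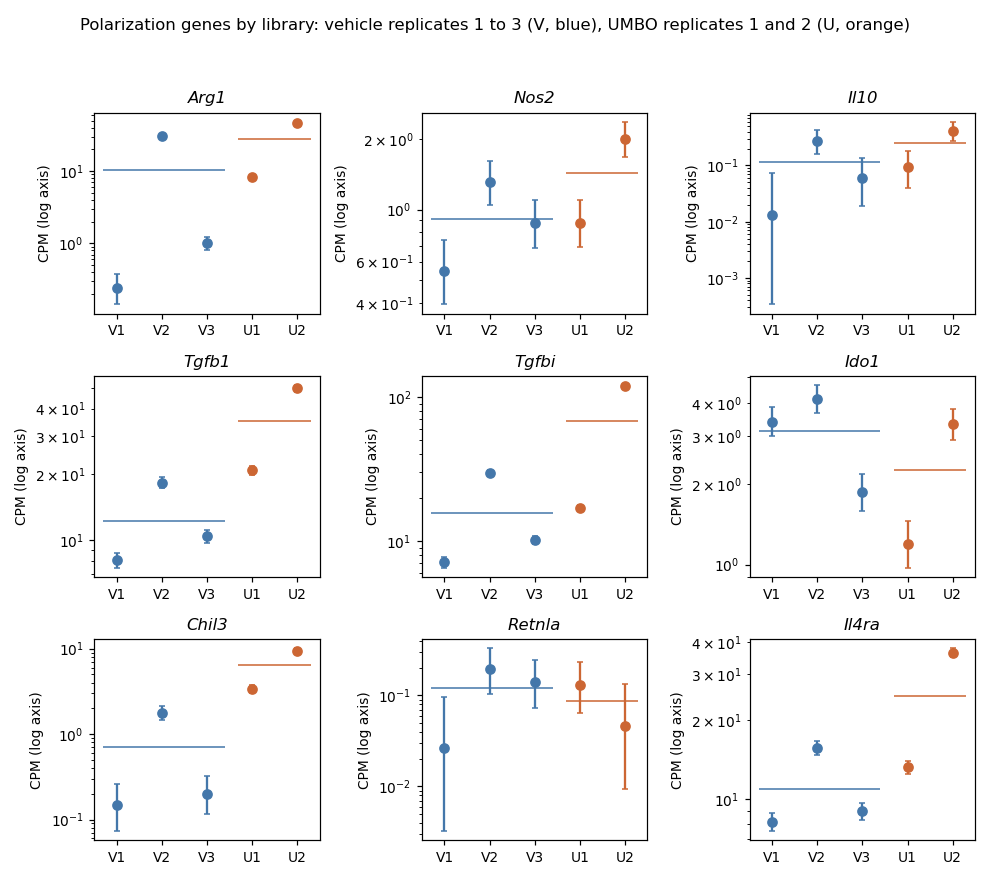
Level of each of the 9 genes in CPM on a log axis, in the 3 vehicle libraries (V, blue) and the 2 UMBO libraries (U, orange), with bars for the 95% exact Poisson interval of the count and lines for the group means. Chil3 and Tgfb1 show both UMBO points above every vehicle point, and vehicle replicate 2 lies high among the vehicle libraries for all 9 genes.

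Among the enzymes that use L-arginine, Arg1 (chromosome 10 of GRCm38, 24915221 to 24927484, reverse strand) was the most variable of the 9 genes. Its level was 0.241, 30.2 and 1.00 CPM in vehicle replicates 1 to 3, and 8.29 and 46.6 CPM in UMBO replicates 1 and 2. Vehicle replicate 2 alone exceeded UMBO replicate 1 by far, so the groups overlapped, and the vehicle libraries differed among themselves by 126-fold. The group levels were 10.5 ± 17.1 CPM (SD, n = 3) and 27.5 ± 27.1 CPM (SD, n = 2). The log2 fold change was 1.39 (standard error 1.76, edgeR adjusted p = 0.672). It was 5.49 without vehicle replicate 2, with an edgeR adjusted p of 0.42, and -0.34 without UMBO replicate 2.

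Nos2 (chromosome 11, 78920787 to 78960254, forward strand) was low and far more even, at 0.548, 1.30 and 0.874 CPM with vehicle and 0.877 and 2.00 CPM with UMBO. UMBO replicate 1 was level with vehicle replicate 3, and only UMBO replicate 2 lay above the vehicle range. The fitted change was 0.66 on the log2 scale (standard error 0.531, edgeR adjusted p = 0.537), and it was -0.05 without UMBO replicate 2. The ratio of Arg1 to Nos2, with 0.1 CPM added to each, was 0.526, 21.6 and 1.13 with vehicle and 8.59 and 22.3 with UMBO. Arg1 RNA therefore exceeded Nos2 RNA by over 8-fold in 3 libraries, 1 of them a vehicle library. On the log2 scale the difference between the groups was 2.56, less than the SD of 2.83 among the vehicle libraries (2-sided exact permutation test over 10 groupings, p = 0.3). The smallest p that 3 libraries against 2 allow is 0.1.

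The sister enzymes behaved differently from each other. Arg2, the mitochondrial arginase, was at 2.98, 3.32 and 2.08 CPM with vehicle and 2.08 and 3.19 CPM with UMBO, a log2 fold change of -0.08 (standard error 0.357). Nos1, the neuronal synthase, was at 53.8 to 96.9 CPM with vehicle and 94.5 and 33.3 CPM with UMBO, and was lowest in the library with the lowest neuron markers. Nos3, the endothelial synthase, was at 7.11 to 10.4 CPM with vehicle and 11.7 and 17.5 CPM with UMBO, a log2 fold change of 0.70 (standard error 0.278, edgeR adjusted p = 0.497). The summed level of 10 endothelial markers was 188 to 262 CPM with vehicle and 322 and 366 CPM with UMBO. Arg2, Nos1 and Nos3 each share exon bases with a gene on the opposite strand, and the part of endothelial cells in the Nos3 values was not tested.

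Of the IL-4 receptor chain and the genes it is known to induce, Chil3 (chromosome 3, 106147554 to 106167564, reverse strand) had the highest fitted change of the 9 genes. It was at 0.147, 1.78 and 0.201 CPM with vehicle and 3.39 and 9.35 CPM with UMBO. Both UMBO libraries lay above the vehicle libraries, with vehicle replicate 2 the closest to them. The log2 fold change was 3.18, or 9.04-fold (standard error 1.12, unadjusted p = 0.0302, edgeR adjusted p = 0.497). Leaving out 1 library at a time gave 2.27 to 5.21, and the lowest edgeR adjusted p of those fits was 0.0548, without UMBO replicate 1 and thus with 1 UMBO library. The counts behind it ran from 11 to 613 reads. Of the read-length stretches of its transcripts, 4.75% also occurred in Chil4 or the pseudogene Gm6522, and Chil4 itself had at most 1 read in a library.

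Neutrophils and monocytes also make Chil3, and their markers were measured in the same libraries. The summed level of 13 neutrophil markers was 11.4 to 18.7 CPM with vehicle and up to 32.9 CPM with UMBO. Csf3r, the receptor for a granulocyte growth factor, made up 73.3% to 84.4% of this sum in each library. Without it the sum was 2.38 to 3.89 CPM with vehicle and 3.89 and 8.76 CPM with UMBO, so UMBO replicate 1 was then level with vehicle replicate 2. Of these 13 markers 8 had enough reads to be tested, all with log2 fold changes above 0 and a median of 0.97, and Ly6g was at 0 in 2 libraries and at most at 3 reads. Retnlg, a neutrophil gene related to Retnla, was at 0.0267, 0.875 and 0.118 CPM with vehicle and 0.304 and 1.10 CPM with UMBO. Its groups overlapped. Of the 8 markers tested, 1 (Csf3r) had both UMBO libraries above the vehicle range, an order that 11.5% of all genes tested had. Mmp8 and Elane also had this order but had too few reads to be tested. Mmp8, a neutrophil collagenase, was at 0.0134 to 0.0236 CPM with vehicle and 0.117 and 0.595 CPM with UMBO. The part of neutrophils in the Csf3r values and in the Chil3 values was not tested.

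Retnla (chromosome 16, 48842551 to 48844461, forward strand) was scarce. It had 2, 13 and 12 reads in the vehicle libraries and 11 and 3 reads in the UMBO libraries, which corresponds to 0.0267, 0.193 and 0.142 CPM and 0.129 and 0.0458 CPM. The 95% exact Poisson intervals of the UMBO libraries, 0.0642 to 0.230 CPM and 0.00944 to 0.134 CPM, overlapped each other. Those of vehicle replicates 1 and 2, 0.00324 to 0.0966 CPM and 0.103 to 0.330 CPM, did not, and these intervals cover counting error only. Its log2 fold change was -0.41 (standard error 0.883, edgeR adjusted p = 0.805) and changed sign without UMBO replicate 2 (0.10) or without vehicle replicate 2 (0.08). Retnla was thus low in UMBO replicate 2, the library in which Chil3 and Arg1 were highest. The groups overlapped, and the vehicle libraries spanned both UMBO values. Retnlb had at most 3 reads in a library.

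Il4ra (chromosome 7, 125552120 to 125579474, forward strand) was at 8.15, 15.7 and 8.94 CPM with vehicle and 13.2 and 36.3 CPM with UMBO. UMBO replicate 1 lay below vehicle replicate 2, so the groups overlapped. The log2 fold change was 1.18 (standard error 0.49, edgeR adjusted p = 0.497). It was 0.27 without UMBO replicate 2, and 1.71 without UMBO replicate 1. The edgeR adjusted p of the latter fit was 0.039, but it held 1 UMBO library, took its spread from the vehicle libraries alone and called 18.3% of all genes. An antisense transcript, Gm44876, shares 9.51% of the exon bases of Il4ra, so reads of the pair cannot be told apart if strand was not used. For the partner chain Il13ra1 the change was 0.59 (standard error 0.289), for Il2rg 1.76 (standard error 0.918), and neither passed (edgeR adjusted p = 0.497 each). Their ligands were hardly seen, with Il4 at 0.0118 to 0.0890 CPM with vehicle and 0.0702 and 0.137 CPM with UMBO, and Il13 at no more than 4 reads in a library.

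Of the suppressive cytokines, Tgfb1 (chromosome 7, 25687002 to 25705077, forward strand) was at 8.07, 18.3 and 10.4 CPM with vehicle and 20.8 and 49.6 CPM with UMBO. Both UMBO libraries were above the vehicle libraries, although UMBO replicate 1 exceeded vehicle replicate 2 only slightly. The group levels were 12.2 ± 5.35 CPM (SD, n = 3) and 35.2 ± 20.4 CPM (SD, n = 2). The log2 fold change was 1.52 (standard error 0.479, unadjusted p = 0.0191, edgeR adjusted p = 0.497), with a range of 0.76 to 1.99 when each library was left out. Without UMBO replicate 1 its edgeR adjusted p was 0.039, in a fit with 1 UMBO library, the one that stood apart, in which only the vehicle libraries gave the spread and 18.3% of all genes passed.

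Of the other isoforms, Tgfb2 overlapped between the groups and Tgfb3 lay slightly above the vehicle range in both UMBO libraries. Tgfb2 was at 18.2 to 23.4 CPM with vehicle and 29.1 and 15.6 CPM with UMBO, and Tgfb3 at 14.5 to 16.1 CPM with vehicle and 16.3 and 17.3 CPM with UMBO. The change was 0.11 on the log2 scale for each, with a standard error of 0.297 for Tgfb2 and 0.174 for Tgfb3.

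Tgfbi (chromosome 13, 56609523 to 56639562, forward strand) was at 7.13, 29.9 and 10.1 CPM with vehicle and 17.0 and 119 CPM with UMBO. Its level in UMBO replicate 2 was 6.99-fold that in UMBO replicate 1, which itself lay inside the vehicle range. The log2 fold change of 2.11 (standard error 0.91, edgeR adjusted p = 0.497) became 0.11 without UMBO replicate 2. Postn, the gene for the related matrix protein periostin, was at 5.29 to 6.53 CPM with vehicle and 5.67 and 4.18 CPM with UMBO, a log2 fold change of -0.23 (standard error 0.269).

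Il10 (chromosome 1, 131019845 to 131024974, forward strand) was the lowest of the 9 genes per kilobase. It had 1, 18 and 5 reads in the vehicle libraries and 8 and 27 reads in the UMBO libraries. This corresponds to 0.0134, 0.267 and 0.0590 CPM and to 0.0936 and 0.412 CPM, with vehicle replicate 2 between the UMBO libraries. Its fitted log2 change was 1.16 (standard error 1.12, edgeR adjusted p = 0.588), and -0.23 without UMBO replicate 2. The receptor chains were more abundant than the ligand. Il10ra was at 8.34 to 18.9 CPM with vehicle and 15.2 and 29.0 CPM with UMBO, a log2 fold change of 0.81 (standard error 0.434). Il10rb was at 5.90 to 10.0 CPM with vehicle and 10.8 and 20.5 CPM with UMBO, a log2 fold change of 1.02 (standard error 0.363), and neither passed (edgeR adjusted p = 0.497 each).

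Ido1 (chromosome 8, 24584136 to 24597009, reverse strand) did not follow the macrophage genes. It was at 3.41, 4.15 and 1.87 CPM with vehicle and 1.19 and 3.33 CPM with UMBO. UMBO replicate 1 was the lowest of all libraries, and UMBO replicate 2 lay within the vehicle range. On the log2 scale the change was -0.48 (standard error 0.56, edgeR adjusted p = 0.649), -1.39 without UMBO replicate 2 and 0.06 without UMBO replicate 1. Ido2 was steady at 1.98 to 2.19 CPM with vehicle and 1.79 and 1.75 CPM with UMBO, a log2 fold change of -0.21 (standard error 0.28). Tdo2, the enzyme for the same step in liver, was at 0.356 to 1.00 CPM with vehicle and 0.678 and 0.229 CPM with UMBO.

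**Figure D3:**
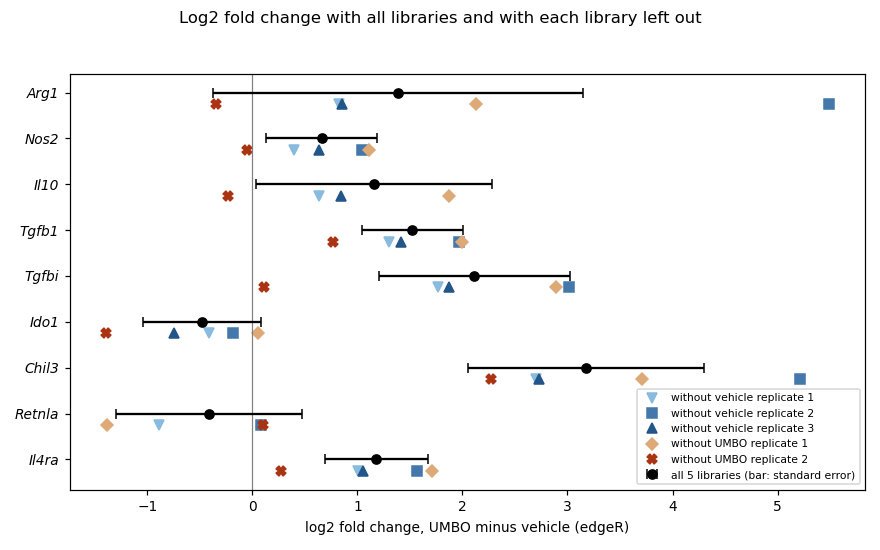
Fitted log2 fold change (UMBO minus vehicle) of each of the 9 genes, with all 5 libraries (black points, bars for the standard error) and with each library left out (colored symbols). Il10 has no symbol without vehicle replicate 2 and Retnla none without vehicle replicate 3, where they were under the filter on low counts. Chil3 and Tgfb1 stay well above 0 in every fit shown, Arg1 runs from -0.34 to 5.49, and most values without UMBO replicate 2 lie close to or below 0.

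Because macrophage markers differed between the libraries, each gene was also expressed relative to them. The value was its log2 CPM minus the mean log2 CPM of the 16 macrophage and monocyte markers of the same library. Vim, whose log2 fold change was 2.19 (standard error 0.733), was kept in this mean. On this scale Chil3 was at -5.00, -3.25 and -5.22 with vehicle and -2.16 and -2.57 with UMBO. No vehicle library reached the UMBO values, an order seen in 0.225% of all genes tested. The groups differed by 2.12 (exact permutation test, 2-sided, p = 0.2, adjusted p = 0.36 over the 9 genes). It was 3.15 relative to microglia markers and 2.96 relative to Ptprc, the pan-leukocyte gene. Tgfb1, in contrast, was at 0.55, 0.09 and 0.29 with vehicle and 0.44 and -0.16 with UMBO relative to the macrophage markers, a difference of -0.17 (2-sided exact permutation p = 0.6). This difference was 0.86 relative to microglia markers.

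Ido1, Nos2 and Il4ra were lower in each UMBO library than in any vehicle library relative to the macrophage markers, an order seen in 26% of all genes tested. Ido1 was at -0.69, -2.04 and -2.17 with vehicle and -3.65 and -4.05 with UMBO, a difference of -2.22. Nos2 was at -3.27, -3.69 and -3.24 with vehicle and -4.08 and -4.78 with UMBO, a difference of -1.03. For Ido1 and Nos2 the exact permutation test (2-sided) gave p = 0.1, the smallest possible, and an adjusted p of 0.36 over the 9 genes. Il4ra was at 0.56, -0.12 and 0.08 with vehicle and -0.21 and -0.61 with UMBO, a difference of -0.59 that was 0.44 relative to microglia markers. Relative to microglia markers the difference was -1.19 for Ido1 (2-sided exact permutation p = 0.3) and -0.01 for Nos2. Relative to Ptprc it was -1.39 for Ido1 (2-sided exact permutation p = 0.2) and -0.20 for Nos2. The difference of Nos2 thus rested on the choice of markers. That of Ido1 stayed below 0, but its size and its smallest possible permutation p rested on this choice too. Arg1, at -4.37, 0.82 and -3.04 with vehicle and -0.88 and -0.25 with UMBO, still overlapped between the groups. Tgfbi was within 0.15 to 1.09 in all 5 libraries.

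**Figure D4:**
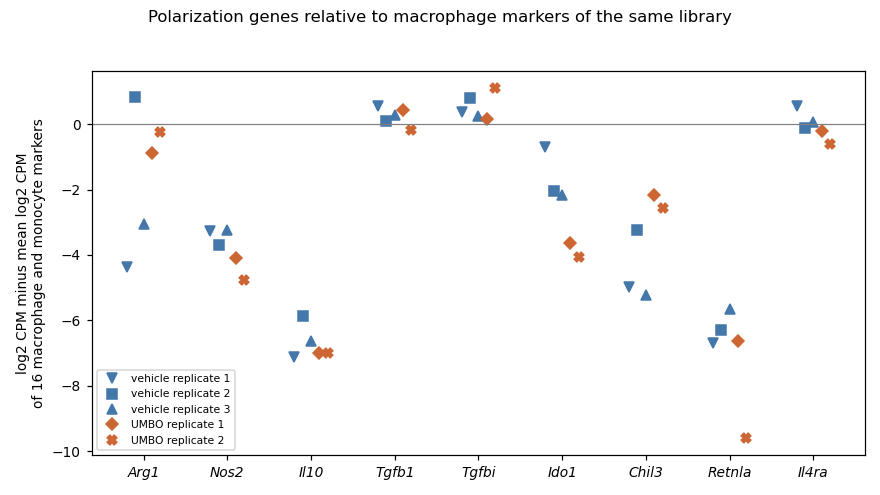
Log2 CPM of each of the 9 genes minus the mean log2 CPM of 16 macrophage and monocyte markers, in the 3 vehicle libraries (blue) and the 2 UMBO libraries (orange). Chil3 shows both UMBO points above the vehicle points, Ido1, Nos2 and Il4ra show them below, and Arg1 keeps a wide spread among the vehicle libraries.

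For each of the 9 genes, the genes whose centered log2 CPM lay nearest over the 5 libraries were listed, by the root mean square difference. Il4ra had the closest neighbors, the ribosomal protein genes Rpl36 (0.04 log2 units) and Fau (0.04). Those of Tgfb1 were Mcub (0.04) and Itgam (0.06), and those of Tgfbi were Napsa (0.08) and Anxa1 (0.10). Nos2 was nearest to Comp (0.05) and Epb42 (0.05), and Il10 to Cd40 (0.15) and Tgm2 (0.16). Ido1 was nearest to Madcam1 (0.08) and Ocm (0.18), and Retnla to Plet1os (0.19) and Als2cr12 (0.23). Arg1 had no close neighbor, with Tarm1 at 1.05 and Cyp4f18 at 1.08 log2 units. Chil3 was nearest to Mmp12 (0.40), the gene for macrophage elastase, which was at 0.147, 0.964 and 0.106 CPM with vehicle and 1.42 and 5.62 CPM with UMBO, and to Gzme (0.41). With 5 libraries of which 1 stands apart, such likeness is a description only. Among the 9 genes themselves Tgfb1 and Il4ra were nearest, at 0.23 log2 units.

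The wider pathways were described by counts, with the 9 genes included where they belong. In none of the 6 lists did a gene pass the adjusted threshold in edgeR's quasi-likelihood test. Of 26 classical activation genes tested, 25 had log2 fold changes above 0, with a median of 1.09 and 2 genes at an unadjusted p under 0.05. Of 25 alternative activation genes tested, 22 were above 0, with a median of 0.95 and 6 genes at an unadjusted p under 0.05, against 5.3% of all genes in this direction. Genes of both programs were thus mostly on the same side of 0. Both medians depended on UMBO replicate 2 and were -0.05 and 0.11 without it.

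Within the alternative activation list, Spp1 (osteopontin, a secreted matrix protein) was at 9.24, 17.9 and 17.8 CPM with vehicle and 33.9 and 237 CPM with UMBO. The fitted change was 3.18 on the log2 scale (standard error 0.776, unadjusted p = 0.00641, edgeR adjusted p = 0.497). Alox15, a lipoxygenase that IL-4 can induce, was at 0.0535 to 0.193 CPM with vehicle and 0.339 and 0.671 CPM with UMBO. In the classical list the smallest unadjusted p values belonged to Il6, at 0.0267, 0.237 and 0.130 CPM with vehicle and 0.222 and 2.24 CPM with UMBO, and to the interferon-gamma receptor chain Ifngr1, with a log2 fold change of 0.65 (standard error 0.258). Il6 was high only in UMBO replicate 2, and Ifngr1 was above the vehicle range in both UMBO libraries.

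The IL-4, IL-13 and IL-10 list had 17 of 19 tested genes above 0, with a median of 0.67, and 3 at an unadjusted p under 0.05. The share above 0 over all genes was 50.9%, and the median of this list was 0.089 without UMBO replicate 2. Named genes of the list were Il13ra2, a decoy receptor for IL-13, at 0.214 to 0.378 CPM with vehicle and 0.503 and 0.946 CPM with UMBO, and the receptor-bound kinase Jak3 (log2 fold change 0.67, standard error 0.267). The metabolic and TGF-beta lists lay closer to all genes. Of 18 arginine and polyamine genes 12 were above 0 (median 0.32, and 0.11 without UMBO replicate 2), with Ddah2, which breaks down methylated arginines, at 1.02 (standard error 0.321) and Sat1, the polyamine acetyltransferase, at 1.38 (standard error 0.489) on the log2 scale. Of 15 tryptophan and kynurenine genes 8 were above 0 (median 0.05), with Slc7a5, an amino acid transporter, at 0.89 (standard error 0.255) and Qprt, a later enzyme of the route, at 0.98 (standard error 0.325). Of 27 TGF-beta genes 17 were above 0 (median 0.12). Tgfbr2, a receptor chain, was at 24.5 to 32.8 CPM with vehicle and 41.5 and 42.9 CPM with UMBO, and Nrros, which holds latent TGF-beta 1 on microglia and macrophages, was 0.92 higher on the log2 scale (standard error 0.361).

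**Figure D5:**
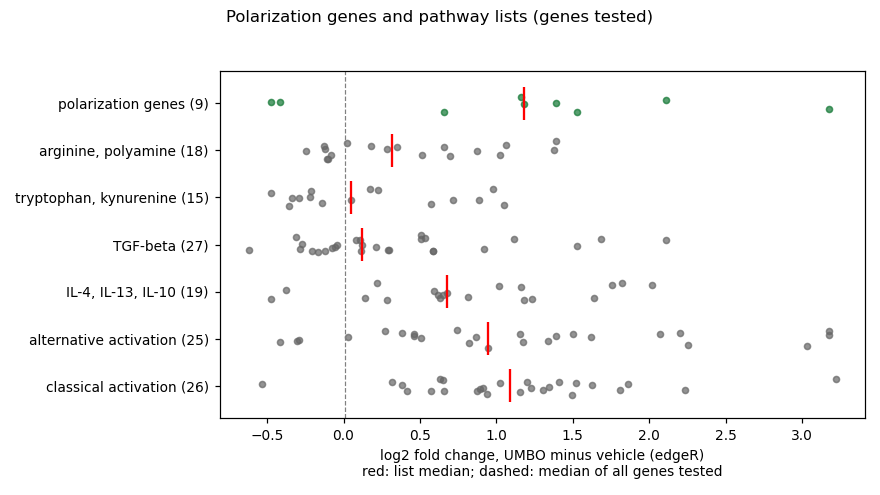
Fitted log2 fold change (UMBO minus vehicle) of the 9 polarization genes and of the genes tested in 6 pathway lists, 1 point a gene, with red lines for the list medians and a dashed line for the median of all genes tested. Points of the classical and alternative activation lists lie mostly above 0, with medians of 1.09 and 0.95, while the tryptophan and TGF-beta lists center near 0.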

How the data were processed

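RNA of 5 hemispheres, 3 vehicle and 2 UMBO, was compared, with groups and replicate numbers from the labels. From each mouse came 1 library. The paper gives n = 3 for its RNA comparison of UMBO with vehicle, whereas 2 UMBO libraries were available here. The authors mapped reads with STAR 2.7.2a to GRCm38 and deposited raw read counts per gene. The annotation release and the strand setting are not given in the sources used here. Symbols, positions and exonic lengths were taken from GENCODE M21 on the same build, and Ctgf was matched through RefSeq to Ccn2.

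After TMM scaling, filterByExpr kept 23592 genes. The groups were compared by edgeR's quasi-likelihood test (version 4.0.16 under R 4.3.3), and p-values were adjusted over all tested genes by the Benjamini-Hochberg method. Log2 CPM used a prior count of 2, and RPKM is CPM per kilobase of exon. Standard errors were derived from the quasi-likelihood F statistic. DESeq2 1.42.0 was an alternative. Marker sums without their most abundant gene were added after seeing the data. The scripts were tested on simulated data. Total counts lay between 59736771 and 86164159, and chi-square values per gene between libraries (58.1 to 727) exceeded sampling noise for every pair. P-values measure the spread between these mice.

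The 9 genes and the lists were chosen with earlier results of these data known. Named genes were the 9 genes, their family partners and the 2 nearest in pattern to each of the 9. The 2 lowest p-values of every pathway list, once the 9 genes and their family partners were left out, were named too. Besides these came marker genes named beside a result, and Il4, Il13 and genes under other observations, picked after their values were seen. Itgam, Jak3, Il2rg, Il10rb and Spp1 share exon bases with a gene on the same strand, so their counts are uncertain. The same holds for Tgfb2, Tgfb3, Tgm2, Cyp4f18, Napsa, Mmp12, Plet1os, Als2cr12, Folr2, F13a1 and Il1b, which share exon bases with a gene on the opposite strand.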

Additional observations from a re-analysis of the deposited data

How the results depend on the processing

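At an adjusted p under 0.05, 0 genes passed in edgeR, 40 with the DESeq2 Wald test, and 0 to 4543 with 1 library left out, the high value without UMBO replicate 1; of the 9 genes 0 to 3 passed in those fits (Tgfb1, Tgfbi and Il4ra without UMBO replicate 1, where the lone UMBO library is assumed to vary like the vehicle libraries). With the replicate block 2337 genes passed, 5 of them among the 9 genes (Arg1, Tgfb1, Tgfbi, Chil3 and Il4ra), and with the replicate block over the numbers both groups hold 2163 and the same 5. Nothing in the labels says that a number marks a shared litter or day, and only 2 numbers are shared (correlations of deviations 0.453 and 0.76, which mirror each other with 2 UMBO libraries), so whether the numbers pair the mice is unknown. The cause was not tested for any of these changes.

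With 1 library left out, the median change (log2) was 0.10 to 1.87 over the 9 genes, 0.11 to 0.44 for arginine, -0.020 to 0.20 for tryptophan, 0.089 to 0.22 for TGF-beta (0.23 with library size only, 0.20 with the stricter filter), 0.089 to 1.10 for IL-4, IL-13 and IL-10, 0.11 to 1.73 for alternative and -0.050 to 1.90 for classical activation. The ranges of genes that changed sign were -0.34 to 5.49 for Arg1, -0.049 to 1.11 for Nos2, -0.23 to 1.87 for Il10, -1.39 to 0.056 for Ido1 and -1.38 to 0.10 for Retnla. Il10 was under the filter on low counts without vehicle replicate 2, and Retnla without vehicle replicate 3. Their ranges and the medians of those fits therefore lack these values. Relative to microglia markers and to Ptprc, in place of macrophage markers, the difference turned positive for Il10 (0.58 and 0.38), Tgfb1 (0.86 and 0.66) and Il4ra (0.44 and 0.25). With 1 library left out it ranged from -0.48 to 0.13 for Tgfb1 and from -0.33 to 0.62 for Tgfbi. Library size alone as the scaling moved the all-gene median from 0.01 to 0.13 and changed the sign of none of the 9 genes. Genes with an unadjusted p under 0.05 numbered 1738, 4100 with no filter, 2738 with DESeq2, and 296 to 10165 with 1 library left out. DESeq2 gave Arg1 no p, and Il10 and Retnla were under the stricter filter.

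With 2 UMBO libraries the smallest exact permutation p is 0.1, and Il10 and Retnla were limited by counts of 27 reads or fewer per library. Low counts also limited Chil3 in vehicle replicates 1 and 3 (11 and 17 reads) and Arg1 in vehicle replicate 1 (18 reads).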

Other observations

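The scavenger and lectin receptor genes Mrc1 and Cd163, which mark macrophages of vessels and meninges, were chosen here after their values were seen. Mrc1, the gene for CD206, was at 6.18, 10.2 and 9.15 CPM with vehicle and 9.73 and 12.5 CPM with UMBO, a log2 fold change of 0.38 (standard error 0.29, edgeR adjusted p = 0.525). Cd163, a receptor for hemoglobin complexes, was at 1.97 to 3.08 CPM with vehicle and 3.17 and 1.82 CPM with UMBO, a log2 fold change of 0.03 (standard error 0.38). From the alternative activation list, Folr2 and F13a1 were also picked after their values were seen. Folr2 was at 0.441 to 0.850 CPM with vehicle and 1.29 and 1.65 CPM with UMBO. F13a1 was at 2.67 to 4.60 CPM with vehicle and 4.67 and 7.98 CPM with UMBO. Both UMBO libraries were above the vehicle libraries for these 2 genes (11.5% of all genes tested had this order), with log2 fold changes of 1.17 and 0.82 (edgeR adjusted p = 0.497 each). An antisense transcript, Gm10602, shares 63.1% of the exon bases of Folr2, so reads of the pair cannot be told apart if strand was not used. The lectin receptor genes Clec10a, Mgl2 and Cd209a of the same list overlapped between the groups. Clec10a was at 0.949 to 1.88 CPM with vehicle and 1.15 and 3.43 CPM with UMBO. Mgl2 was at 0.695 to 2.02 CPM with vehicle and 1.11 and 2.82 CPM with UMBO. Cd209a was at 0.214 to 0.366 CPM with vehicle and 0.222 and 0.824 CPM with UMBO. The inflammatory cytokine genes Il1b and Tnf were highest in UMBO replicate 2, Il1b at 6.74 CPM, and in UMBO replicate 1 Il1b at 1.18 CPM and Tnf at 0.737 CPM lay below vehicle replicate 2, at 2.27 and 0.964 CPM.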
